A study of Mus musculus with 2 samples.

Results

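The nuclear hormone receptors were described in CH cells, small cells sorted from the peripheral blood of mice. Taken were 42 genes chosen by name, with no rule on measured values, though earlier results of these data were known. They were the receptors for retinoids, steroids, thyroid hormone, vitamin D, lipids and xenobiotics, the clock-linked receptors, and the orphan receptors. Of these, 40 had a probe set that names them alone, out of 18193 genes with such a probe set, whereas Nr1h2 and Nr2e3 were not analysed here. Total RNA was read on 2 Affymetrix mouse expression arrays, with a separate pool of 15 C57bl/6 mice behind each, male and female, aged 7 months according to the labels. The general methods of the study give younger mice and smaller pools. CH cells were gated as small events without lineage antigens, without CD45 and without the dead-cell dye Sytox, and with the DNA dye Vybrant. The mice carried no transgene in the labels, and no treatment with a hormone, retinoid or other ligand is described for these samples. By the general methods, blood was taken under ketamine and xylazine, and cells were stained in a buffer with foetal bovine serum. Whether these steps changed the levels was not tested. There was 1 group and no second condition, so levels were set against a fixed limit and nothing here is a response to a hormone.

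Nuclear receptors are transcription factors that bind DNA and, in many cases, a small fat-soluble ligand that enters the cell. Receptors for retinoic acid, thyroid hormone, vitamin D and several lipids pair with a retinoid X receptor on DNA, whereas steroid receptors wait in complexes with heat shock proteins and bind DNA as pairs of like molecules. Without ligand, many paired receptors hold corepressors with histone deacetylases. With ligand they exchange them for coactivators with histone acetyltransferases. Orphan receptors have no established physiological ligand or act through their amount, as the immediate early receptors of the Nr4a family do.

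A probe set combines several short probes for one transcript, and its deposited log2 signal also reflects how well they bind. Signals of different genes therefore give no order of transcript abundance. The order of means within a list only chose which genes to name, and medians of lists describe signals. Lists of related genes were chosen with earlier results of these data known. Their shares beside those of all genes are therefore descriptions and not tests. Each signal was compared with 5 (log2), the limit below which the study removed genes that were low throughout its dataset. A gene counted as above 5 if both arrays exceeded 5 with any of its probe sets, and the level given for it is that of the probe set whose mean was highest. Signals ran from 2.68 to 15.27, the arrays had medians of 5.54 and 5.52, and over 45037 probe sets the difference between them had an SD of 0.20. As a view of background, 76 genes of smell and taste receptors had a median of 4.06 over 84 probe sets, a 95th percentile of 6.04 and a highest mean of 6.92, and 13 of them (17.1%) were also above 5. A signal of 6.92 or less is therefore within the range of these background genes, called the background range here. The number of arrays limits the precision of each value. In bulk RNA, fewer cells with a transcript and less of it in each cell cannot be told apart.

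Receptors are known to act through short DNA motifs near their target genes, and the promoters in which such a motif was matched are shown because the arrays measured the genes they belong to. The sequences are from RefSeq on the mouse build GRCm38.p6, run 5′ to 3′ along the gene, and cover 250 bases before and 50 bases after the start. Capitals mark the matches, and positions are counted with -1 as the base just before the start. The motif of retinoic acid receptor pairs was searched on both strands as 2 units in the same direction, each AGGTCA or GGGTCA or AGTTCA or GGTTCA, with 5 bases between them. Of 150 receptors and related genes with a promoter in the table, 2 had it, Cyp26a1 and Rarb, both listed as known retinoic acid targets. It was in 32 of all 32851 promoters (0.0974%), a count of promoters and not of genes. Cyp26a1, the enzyme that breaks down retinoic acid, lies on the plus strand and its window is chr19:37697558-37697857. Its match, at -32 to -16, reads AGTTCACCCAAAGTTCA on the opposite strand. Rarb, retinoic acid receptor beta, lies on the minus strand, its window is chr14:16575427-16575726, and its match is at -53 to -37.
Cyp26a1: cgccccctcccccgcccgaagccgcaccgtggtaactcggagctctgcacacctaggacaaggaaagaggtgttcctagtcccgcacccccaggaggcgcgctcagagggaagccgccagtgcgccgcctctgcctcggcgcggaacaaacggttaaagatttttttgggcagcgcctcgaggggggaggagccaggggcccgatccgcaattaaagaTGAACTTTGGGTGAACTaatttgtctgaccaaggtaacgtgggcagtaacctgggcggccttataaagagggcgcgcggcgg
Rarb: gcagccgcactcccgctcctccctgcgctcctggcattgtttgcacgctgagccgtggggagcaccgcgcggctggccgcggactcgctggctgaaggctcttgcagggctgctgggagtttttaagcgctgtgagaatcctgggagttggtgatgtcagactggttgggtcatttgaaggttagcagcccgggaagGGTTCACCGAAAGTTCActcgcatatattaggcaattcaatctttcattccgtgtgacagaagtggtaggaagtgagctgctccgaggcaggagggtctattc

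The glucocorticoid response element was searched as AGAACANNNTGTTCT, where N is any base, on both strands. It was in 3 of 32851 promoters (0.00913%), and among the 150 genes only Sgk1, a kinase that regulates sodium transport and a listed glucocorticoid target, had it. The Sgk1 window is chr10:21993640-21993939 on the plus strand, with the match at -189 to -175. The promoter of the immediate early receptor Nr4a1, chr15:101266596-101266895 on the plus strand, is shown for its 4 copies of TGCGTCA, the first at -235 to -229. That motif resembles the binding site of CREB family factors and was chosen after the sequence was read. It was in 2.12% of all promoters searched on both strands, and in the table only Nr4a1 held 4 copies.
Sgk1: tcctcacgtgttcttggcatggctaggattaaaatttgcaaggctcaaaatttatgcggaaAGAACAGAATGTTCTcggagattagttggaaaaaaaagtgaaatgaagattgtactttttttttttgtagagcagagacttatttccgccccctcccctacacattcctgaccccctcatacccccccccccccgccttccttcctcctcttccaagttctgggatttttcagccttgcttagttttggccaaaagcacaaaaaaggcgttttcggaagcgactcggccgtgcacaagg
Nr4a1: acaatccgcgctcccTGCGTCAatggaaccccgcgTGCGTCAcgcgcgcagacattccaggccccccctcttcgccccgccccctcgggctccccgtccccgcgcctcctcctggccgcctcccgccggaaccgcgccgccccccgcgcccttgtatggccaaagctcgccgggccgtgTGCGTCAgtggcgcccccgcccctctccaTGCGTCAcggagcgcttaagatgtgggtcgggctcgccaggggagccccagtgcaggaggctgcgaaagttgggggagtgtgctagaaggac

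None of these 4 promoters held a match to more than 1 of the 3 motifs. A match is a description of letters and not evidence of a bound site. Of the 42 receptors, 39 had a promoter in the table.

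Over the receptors as a whole, 28 of 40 (70.0%) were above 5 on both arrays, against 71.2% of all 18193 genes. Above 8 were 14 receptors (35.0%), against 37.0% of all genes. All probe sets were below 5 on both arrays for 11 receptors (27.5%), against 25.9% of all genes. Nr1i3 was the only receptor whose highest probe set had its arrays on different sides of 5. The receptors were thus close to the share of all genes at both limits. Their median level was 6.54, against 6.84 for all genes. Of their 104 probe sets, 61 (58.7%) were above 5 by limma at an adjusted p under 0.05, against 54.8% of all probe sets, and 34 (32.7%) were below it, against 36.4%. All probe sets here include those that name several genes or none, whereas each receptor probe set names 1 gene, so the sets are unlike. Receptors had 2.60 probe sets per gene and all genes 1.92, and a gene with more probe sets has more chances to pass. By class, above 5 were 5 of 6 retinoid receptors, 3 of 5 steroid receptors, 2 of 3 thyroid hormone and vitamin D receptors, 2 of 7 lipid and xenobiotic receptors, 4 of 4 clock-linked receptors, 3 of 3 Nr4a receptors and 9 of 12 other orphan receptors. Above 5 but not above 6.04, the 95th percentile of the background genes, were Rxrg, Esr2, Nr1h3, Rorb, Nr0b2 and Nr5a2. A further 4 receptors, Rara, Vdr, Nr1d1 and Ppard, were above 6.04 with means up to 6.92, and thus also within the background range.

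**Figure D1:**
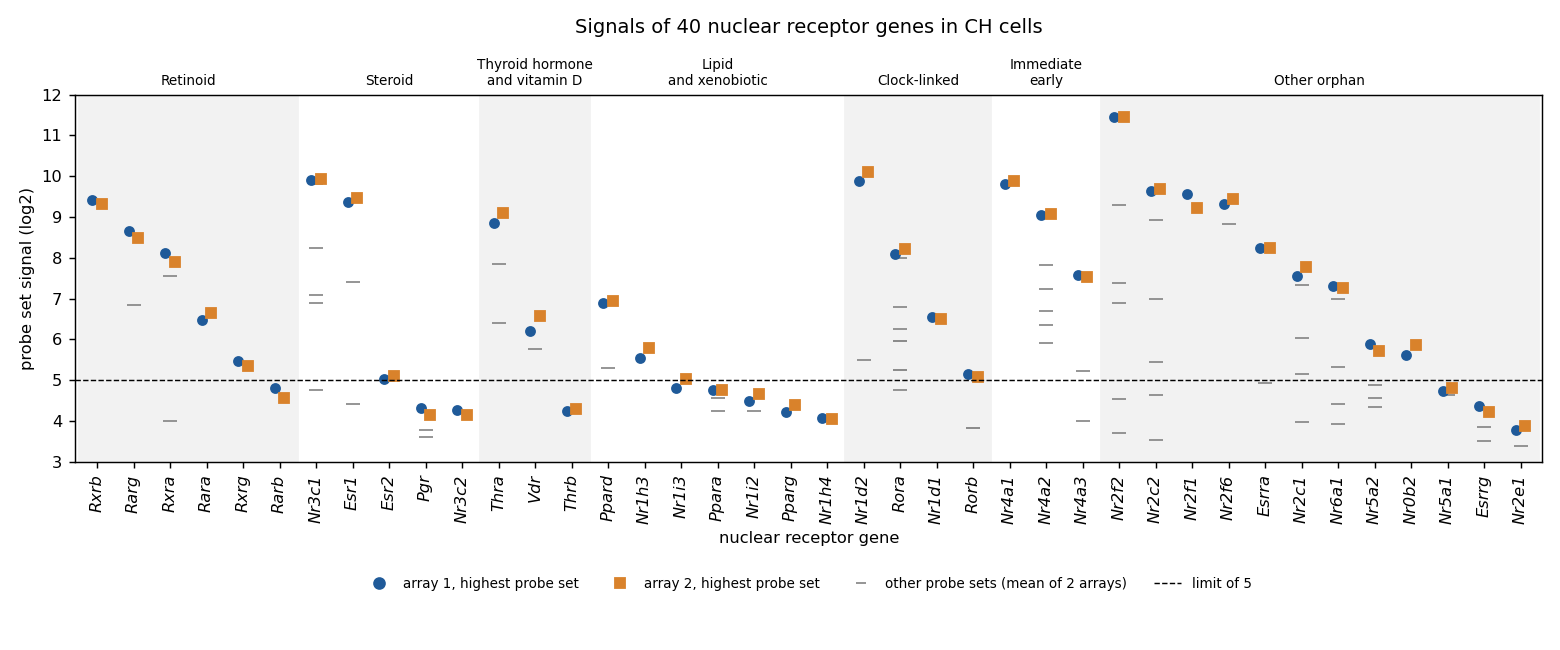
Signal (log2) of each of 40 nuclear receptor genes in CH cells, by class, with the highest probe set on array 1 (circles) and array 2 (squares), the mean of other probe sets (grey bars) and the limit of 5 (dashed line). The array 1 and array 2 points of each gene lie within 0.38 of each other, and 28 genes have both points above the dashed line.

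Among the retinoid receptors, the retinoid X receptors were above 5 in 3 of 3 genes and the retinoic acid receptors in 2 of 3. Together 5 of 6 (83.3%) were above 5 and 2 (33.3%) above 8, against 71.2% and 37.0% of all genes. Rxrb was at 9.42 and 9.31 on arrays 1 and 2 (9.37 ± 0.08, SD, n = 2 arrays). Rxra was at 8.13 and 7.89 with one probe set and at a mean of 7.56 with a second, while its other probe set was at 3.99 and 4.01. Rxrg, which is known from muscle and brain, was at 5.47 and 5.35. Of these 3 partners of other receptors, Rxrg was within the background range. Of the retinoic acid receptors, Rarg was at 8.66 and 8.48, with its other probe set at 6.85. Rara, which is widely expressed, was at 6.47 and 6.66, within the background range. Rarb, itself a known target of retinoic acid, was at 4.82 and 4.57 (4.69 ± 0.18, adjusted p = 0.0208 by limma against 5). Rarb was therefore the 1 retinoid receptor below 5 on both arrays, and it has a single probe set.

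Genes that move, make and destroy retinoids were above 5 in 10 of 13 measured and above 8 in 4, against 71.2% and 37.0% of all genes, with a median of 5.43, against 6.84. Crabp1, a binding protein that holds retinoic acid in the cytoplasm, was at 13.01 and 13.17. Fabp5, a fatty acid binding protein also known to carry retinoic acid, was at 12.36 and 12.46. Cyp26a1, whose promoter holds the retinoic acid motif shown above, was at 10.66 and 10.69 (adjusted p = 9.78e-08 by limma). Rdh10, which oxidizes retinol to retinaldehyde, was at 9.76 and 9.83. These 4 were far above both the limit and the background range, and they cover binding, breakdown and the first step of synthesis. The other genes of the list that were above 5 were within the background range. The enzymes of the last step were near or below the limit. Aldh1a1 was at 5.21 and 4.87, Aldh1a2 at 3.97 and 3.84, and Aldh1a3 at 5.02 and 5.25 with another probe set at a mean below 5. Aldh1a1 and Aldh1a3 did not differ from 5 by limma (adjusted p = 0.723 and 0.199). Cyp26b1, a second breakdown enzyme, was at 6.37 and 6.31. Lrat, which stores retinol as esters, was at 3.56 and 3.41. Stra6, the retinol transporter, was at 5.30 and 5.41, Rbp4, the carrier of retinol in plasma, at 5.59 and 5.27, and Dhrs3, which reduces retinaldehyde, at 5.25 and 5.53.

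Known target genes of retinoic acid, a list that shares Rarb, Cyp26a1, Stra6, Dhrs3 and Crabp2 with the lists above, were above 5 in 6 of 9 measured, near the 71.2% of all genes. Only Cyp26a1 was above 8, and the median was 5.39. Crabp2, which delivers retinoic acid to its receptors, was at 5.98 and 6.50. Tgm2, a transglutaminase, was at 6.27 and 6.22, with another of its probe sets below 5. Stra8, known from germ cells entering meiosis, was at 5.75 and 5.62. Crabp2, Tgm2, Stra8, Stra6 and Dhrs3 were all within the background range, and only Cyp26a1 was outside it. Hoxb1, a hindbrain patterning gene, was at 4.24 and 3.84, and Cdx1, an intestinal and axial patterning gene, at 4.92 and 4.75. Both genes with the motif in the promoter were measured, and they lay on opposite sides of the limit.

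**Figure D2:**
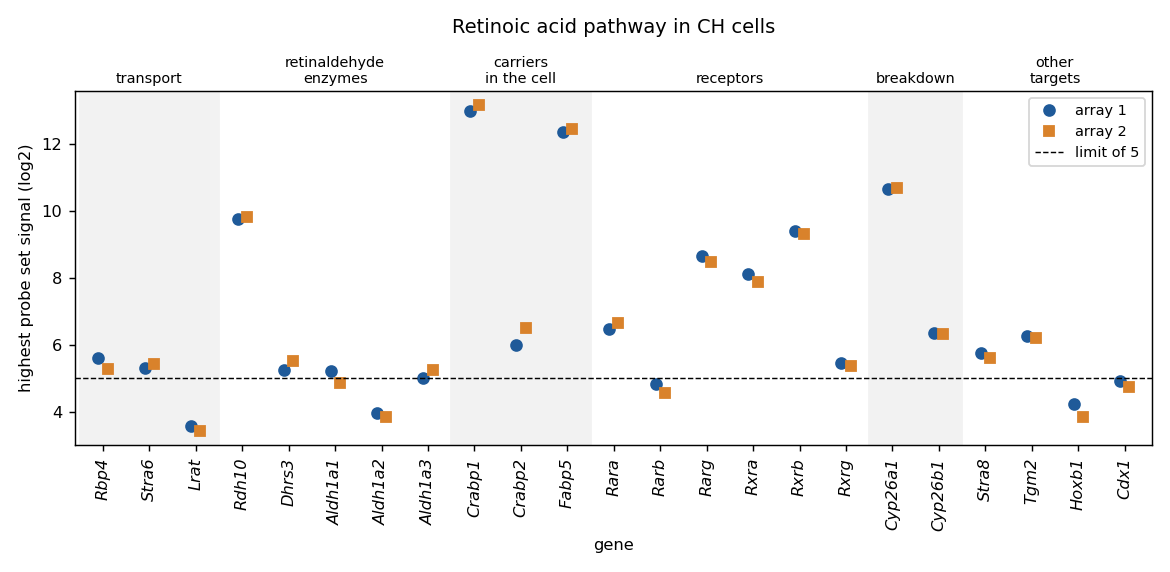
Signal (log2) of the highest probe set of genes of the retinoic acid pathway in CH cells on array 1 (circles) and array 2 (squares), in the order of transport, retinaldehyde enzymes, carriers, receptors, breakdown and other targets, with the limit of 5 (dashed line). Crabp1, Fabp5, Cyp26a1 and Rdh10 lie between 9.76 and 13.17, and the Aldh1a genes lie between 3.84 and 5.25.

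Of the steroid receptors, those for glucocorticoids and estrogen were above 5 and those for mineralocorticoids and progesterone were below it. Nr3c1, the glucocorticoid receptor, was at 9.92 on both arrays with its highest probe set, and 5 of its 6 probe sets were above 5. The others had means of 9.81, 8.23, 7.08, 6.88 and 4.75. Esr1, estrogen receptor alpha, was at 9.37 and 9.46 with one probe set and at 7.40 with a second, while the last was at 4.42. Esr2, estrogen receptor beta, was at 5.03 and 5.11, a mean that did not differ from 5 (adjusted p = 0.408 by limma). Nr3c2, the mineralocorticoid receptor, was at 4.26 and 4.15 with 1 probe set. Pgr, the progesterone receptor and a known estrogen target, was at 4.31 and 4.14, and its 3 probe sets were all below 5. The pair of Nr3c1 and Esr1 thus stood above 9 on both arrays, Esr2 was just above 5, and Nr3c2 and Pgr were below it. The androgen receptor was not among the 42 genes.

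Chaperones and enzymes around the steroid receptors were above 5 in 7 of 9 measured, near the 71.2% of all genes, with a median of 6.37, against 6.84 for all genes. Hsp90aa1, the heat shock protein that holds unliganded steroid receptors, was at 13.08 and 13.03. Stip1, which links heat shock proteins to each other, was at 11.09 and 11.07. The immunophilins Fkbp4 and Fkbp5, which bind the same complexes, were at 10.97 and 11.03 and at 9.74 and 9.71. Hsp90aa1 and Fkbp5, as well as Star, each had a further probe set with a mean below 5. Hsd11b1, which regenerates active glucocorticoid, was at 6.49 and 6.24. Hsd11b2, which inactivates it, was at 4.35 and 4.66. Cyp11a1, the first enzyme of steroid synthesis, was at 5.26 and 4.85, on both sides of the limit. Cyp17a1, an enzyme of androgen and cortisol synthesis, was at 5.09 and 5.08, and Star, which brings cholesterol into mitochondria, at 5.76 and 5.46. Hsd11b1, Cyp17a1 and Star were within the background range.

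Known glucocorticoid target genes were above 5 in 13 of 13 and above 8 in 12, against 71.2% and 37.0% of all genes, with a median of 11.63, against 6.84. No ligand was tested, and many of these genes are also known to respond to stress and to other signals. The list was chosen with earlier results of these data known, so its share is no test of glucocorticoid action. Cebpd, a transcription factor of acute inflammation, was at 12.60 and 12.64. The metal-binding protein Mt1 was at 12.58 and 12.55. Errfi1, an inhibitor of the EGF receptor, was at 12.42 and 12.34, and Nfkbia, the inhibitor of NF-kappaB, at 11.94 and 11.80. Sgk1, whose promoter holds the glucocorticoid motif shown above, was at 11.65 and 11.74. Tsc22d3, an anti-inflammatory factor known as GILZ, was at 8.95 and 9.03, and Per1, a clock gene, at 8.22 and 8.28. Zbtb16, a zinc finger repressor, was the 1 gene of the list between 5 and 6.04, at 5.73 and 5.72. Tsc22d3, Fkbp5, Zbtb16 and Klf9 each had a further probe set with a mean below 5.

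Estrogen and progesterone target genes were above 5 in 6 of 7 measured and above 8 in 5, against 71.2% and 37.0% of all genes, with a median of 8.79. Xbp1, a factor of the unfolded protein response, was at 12.21 and 12.11. Igfbp4, a binding protein of insulin-like growth factors, was at 11.35 and 11.49, and the lysosomal protease Ctsd at 11.40 and 11.23. These 3 are expressed in many tissues. Tff1, a secreted peptide that is an estrogen target in human breast cancer cells, was at 9.01 and 8.58. Greb1, another estrogen target in such cells, was at 7.01 on both arrays and had a further probe set with a mean below 5. The member of the list below 5 was Pgr.

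Of the receptors for thyroid hormone and vitamin D, Thra and Vdr were above 5 and Thrb was below. Thra, thyroid hormone receptor alpha, was at 8.84 and 9.09, with its other probe sets at 7.86 and 6.41. Thra and Nr1d1 lie on opposite strands and their transcript ends overlap, and how far their probe sets share sequence was not tested. Thrb, the receptor beta known from liver and pituitary, was at 4.24 and 4.29 with 1 probe set. Vdr, the vitamin D receptor, was at 6.20 and 6.58 (6.39 ± 0.27, SD, n = 2 arrays), and its other probe set had a mean of 5.77, both within the background range. Genes of thyroid hormone transport, conversion and response were above 5 in 5 of 7 measured, near the 71.2% of all genes, with a median of 5.48. Klf9, a thyroid hormone target that is also in the glucocorticoid list, was at 10.43 and 10.52. Thrsp, a lipogenic factor induced by thyroid hormone in liver, was at 6.95 and 6.81, and the thyroid hormone transporter Slc16a10 at 6.33 and 6.23. Hr, a corepressor and thyroid hormone target, was at 5.42 and 5.54. The activating deiodinases Dio1 and Dio2 were at 3.37 and 3.42 and at 5.54 and 5.29, and the transporter Slco1c1 was at 3.98 and 3.89. All 5 genes of the list that were above 5 had a further probe set with a mean below it, and only Klf9 was outside the background range. Of 5 measured genes of vitamin D metabolism and response, only the calcium channel Trpv6 was above 5, at 5.08 and 5.32, and its mean did not differ from 5 (adjusted p = 0.0734 by limma). Cyp24a1, the breakdown enzyme that vitamin D induces through Vdr, was at 4.86 and 4.75. Cyp27b1, which activates vitamin D, was at 4.57 and 4.29, Cyp2r1, which acts one step earlier in the liver, at 3.28 and 3.42, and the intestinal calcium-binding protein S100g at 3.88 and 3.81.

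The lipid and xenobiotic receptors were the class with the lowest share above 5, at 2 of 7 (28.6%), against 71.2% of all genes. Above 8 were 0, against 37.0% of all genes, and the median was 4.75, against 6.84. Ppard, the widely expressed receptor for fatty acids, was at 6.90 and 6.94, with its other probe set at 5.30. A probe set that names both Ppard and 1810013A23Rik was at 6.21 and 6.04 and was not counted. Ppara, the fatty acid receptor of liver and heart, was at 4.75 on both arrays, and its 3 probe sets were below 5. Pparg, the receptor that drives fat cell differentiation, was at 4.23 and 4.39. Nr1h3, the oxysterol receptor LXR alpha, was at 5.54 and 5.80, within the background range. Nr1h4, the bile acid receptor FXR, was at 4.07 and 4.04. Nr1i2, the xenobiotic receptor PXR, was at 4.48 and 4.66, and Nr1i3, the related receptor CAR, was at 4.82 and 5.02 (adjusted p = 0.397 by limma). No receptor of the class was outside the background range, and Ppard was at its upper end. Whether the other LXR, encoded by Nr1h2, was present was not analysed here.

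PPAR target genes were above 5 in 5 of 12 measured, against 71.2% of all genes, with a median of 5.08. Plin2, the coat protein of lipid droplets, was at 11.55 and 11.50, and Acadm, an enzyme of fatty acid oxidation, at 10.43 and 10.38. The secreted lipase inhibitor Angptl4 was at 8.66 and 8.73, with a further probe set with a mean below 5. Cpt1a, which brings fatty acids into mitochondria, was at 8.30 and 8.20, and Fabp3, a fatty acid binding protein of muscle, at 7.54 and 7.59. The fat cell genes Adipoq and Fabp4 were at 3.60 and 3.73 and at 4.81 and 5.02, and Cyp4a14, a fatty acid hydroxylase of liver, was at 4.14 and 3.69. Lpl, the lipase of blood vessel walls, was at 5.44 and 4.99, and Pdk4, a kinase that limits glucose oxidation, at 4.29 and 4.33. LXR target genes were above 5 in 10 of 11 and above 8 in 8, against 71.2% and 37.0% of all genes, with a median of 9.11. The desaturases Scd2 and Scd1 were at 13.24 and 13.22 and at 10.80 and 10.94. Lpcat3, which remodels phospholipids, was at 9.91 and 9.83, and Srebf1, the factor that drives fatty acid synthesis, at 9.46 on both arrays. The cholesterol exporters Abca1 and Abcg1 were at 9.46 and 9.39 and at 6.29 and 6.21, and Abca1 had a further probe set with a mean below 5. Of the LXR targets above 5, Abcg1 and Abcg8 were within the background range. The sterol transporter Abcg5 of liver and gut was at 3.89 and 3.75. Several of these lipid genes are also controlled by other factors, so their levels do not read out a receptor. Target genes of bile acid and xenobiotic receptors were above 5 in 2 of 9, against 71.2% of all genes, with a median of 4.83. Those above were the cytochrome Cyp2b10, at 6.71 and 6.76, and the bile acid exporter subunit Slc51b, at 6.28 and 6.19, both within the background range. The other probe sets of Cyp2b10 had means of 3.59 and 3.46. The liver enzymes Cyp7a1 and Cyp3a11 were at 4.83 on both arrays and at 3.65 and 3.85. Cyp8b1, a further enzyme of bile acid synthesis, was at 4.92 and 4.85, and the bile acid importer Slc10a1 at 4.27 and 4.25. Fgf15, a hormone that the intestine releases on bile acid sensing, was at 5.24 and 4.96.

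The clock-linked receptors were all above 5, in 4 of 4 genes. Nr1d2, the repressor REV-ERB beta, was at 9.88 and 10.10 with one probe set and at 5.49 with the other. Nr1d1, its close relative REV-ERB alpha, was at 6.55 and 6.50. Rora, an activator that competes with these repressors at the same motifs, was at 8.09 and 8.20, and 8 of its 9 probe sets were above 5. Rorb, known from retina and brain, was at 5.15 and 5.08, did not differ from 5 (adjusted p = 0.187 by limma), and had both other probe sets at 3.84. So Nr1d2 and Rora were outside the background range, and Nr1d1 and Rorb were not. Other genes of the clock were above 5 in 14 of 14 and above 8 in 7, against 71.2% and 37.0% of all genes, with a median of 8.14. Arntl and Clock, the activators of the loop, were at 8.94 and 8.82 and at 8.64 and 8.70. Bhlhe40, a repressor, was at 10.15 on both arrays. Tef, an output factor, was at 9.32 and 9.30, and Nfil3, which opposes it, at 9.27 and 9.34. Npas2, an alternative partner of Arntl, was at 5.18 and 5.08, and Bhlhe41, a repressor related to Bhlhe40, at 5.34 on both arrays. Both were within the background range, as were Per2 and Per3. Clock, Npas2, Per3, Tef and Bhlhe41 each had a further probe set with a mean below 5. No source used here gives the time of day at which blood was taken, and levels of these genes are known to change over the day.

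The Nr4a receptors, which are induced within minutes by many stimuli and need no ligand, were above 5 in 3 of 3 genes. Nr4a1, known as Nur77, was at 9.80 and 9.89 with its only probe set (adjusted p = 1.42e-07 by limma). Nr4a2, known as Nurr1, was at 9.06 on both arrays, and all 6 of its probe sets were above 5, the lowest at 5.91. Nr4a3, known as NOR1, was at 7.58 and 7.54, with its other probe sets at 5.36 and 5.09 and at 3.83 and 4.17. All 3 were outside the background range. Other immediate early genes were above 5 in 11 of 12 and above 8 in 10, against 71.2% and 37.0% of all genes, with a median of 9.18, against 6.84. Egr1, a zinc finger factor induced with Nr4a1 in many cells, was at 12.95 and 12.87. Jun, a subunit of AP-1, was at 11.58 and 11.64, Ier2, another early response factor, at 11.56 and 11.50, and the phosphatase Dusp1, also in the glucocorticoid list, at 11.36 and 11.43. Fosb, an AP-1 subunit, was below 5, at 4.82 on both arrays, and Klf2, a factor of resting lymphocytes and endothelium, was at 7.27 and 7.12. No unsorted sample was analysed here, so whether these levels are those of cells in the blood was not tested.

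Of the other orphan receptors, 9 of 12 were above 5 and 5 were above 8, near the 71.2% and 37.0% of all genes. Nr2f2, known as COUP-TFII, a factor of veins and mesenchyme, was at 11.44 and 11.45 with its highest probe set (adjusted p = 8.91e-08 by limma). Its 5 other probe sets had means of 9.30, 7.39, 6.88, 4.53 and 3.71. Its relatives Nr2f1 and Nr2f6 were at 9.56 and 9.22 and at 9.32 and 9.44, and the second probe set of Nr2f6 was at 8.84. These 3 relatives were each above 8, as were 37.0% of all genes. Nr2c2, the testicular receptor TR4, was at 9.64 and 9.68, with 4 of its 6 probe sets above 5, and Nr2c1, its relative TR2, was at 7.55 and 7.76, with 4 of 5. Esrra, a regulator of mitochondrial genes, was at 8.23 and 8.25, and its second probe set was at 4.93. Esrrg, a relative known from heart and muscle, was at 4.35 and 4.22, with its 3 probe sets below 5.

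Nr6a1, known as GCNF, which represses pluripotency genes as embryonic stem cells differentiate, was at 7.30 and 7.26, with 3 of its 5 probe sets above 5. Nr5a2, known as LRH-1, which can take the place of Oct4 in reprogramming of mouse cells, was at 5.88 and 5.72 with 1 probe set. Its 3 other probe sets were below 5, with means of 4.88, 4.56 and 4.35, and the call was lost without the probe sets whose identifiers end in _s_at or _x_at, which can read several transcripts. Nr5a1, known as SF-1, the factor of adrenal gland and gonad, was at 4.72 and 4.82. Nr0b2, known as SHP, a receptor without a DNA-binding domain, was at 5.62 and 5.85, within the background range. Nr2e1, known as TLX, a factor of neural stem cells, was at 3.77 and 3.87. Among nuclear receptors that were not in the list of 42, 2 of 4 measured were above 5, against 71.2% of all genes. Esrrb, a receptor of pluripotent cells, was at 5.94 and 5.81, and Hnf4a, a receptor of liver and gut, at 5.86 and 6.00 with a further probe set with a mean below 5. Nr0b1, known as DAX1, was at 4.85 and 4.38, and Hnf4g at 3.68 and 3.84. None of these 4 was outside the background range.

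Transcripts of the proteins that receptors recruit were read next. Coactivators were above 5 in 14 of 14 and above 8 in 10, against 71.2% and 37.0% of all genes, with a median of 8.80, against 6.84. The methyltransferases Prmt1 and Carm1 were at 12.69 and 12.70 and at 9.58 and 9.59. Med1, the Mediator subunit that contacts receptors, was at 9.74 and 9.80, and the acetyltransferase Kat2b at 9.54 and 9.57. The p160 coactivators Ncoa1, Ncoa2 and Ncoa3 were at 8.24 and 8.20, at 8.60 and 8.68 and at 6.80 and 7.15. The coactivators of mitochondrial genes Ppargc1a and Ppargc1b were at 6.15 and 6.29 and at 6.58 and 6.83, both within the background range. Ncoa1, Ncoa7, Kat2b, Med1 and Ppargc1a each had a further probe set with a mean below 5. Corepressors were above 5 in 7 of 7 measured and above 8 in 5, against the same shares, with a median of 9.09. Tbl1x and Tbl1xr1, which exchange corepressors for coactivators, were at 10.61 and 10.67 and at 9.81 and 10.14. The deacetylase Hdac3 was at 10.14 and 10.23, and the scaffold Sin3a at 8.97 and 9.21. Nrip1, which represses ligand-bound receptors, was at 7.59 and 7.79. Gps2, a small subunit of the corepressor complex, was at 6.59 and 6.46, within the background range. Nrip1 and Tbl1xr1 each had a further probe set with a mean below 5. Most of these proteins also serve other transcription factors.

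**Figure D3:**
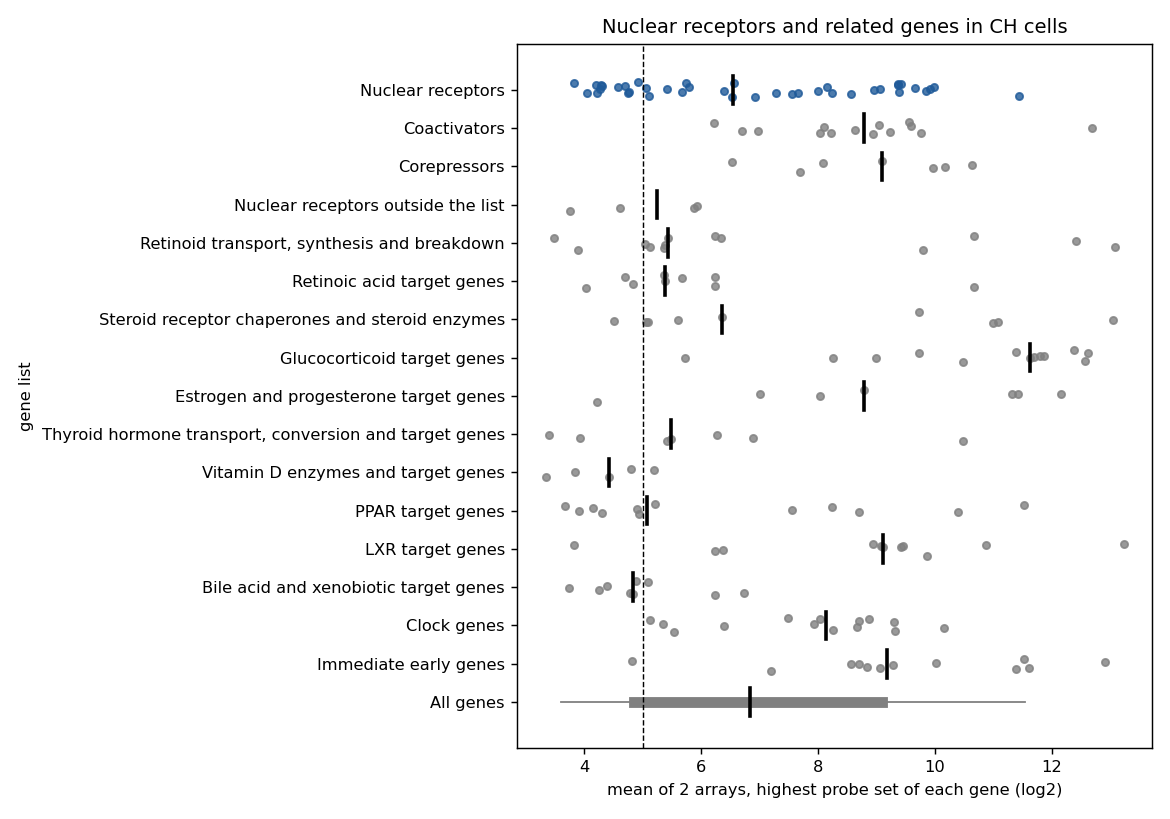
Level (log2, mean of 2 arrays, highest probe set) of each gene of the nuclear receptors and of related lists in CH cells (points), with the median of each list (black bars) and the limit of 5 (dashed line). For all 18193 genes the thick bar spans the interquartile range and the thin line the 5th to the 95th percentile. The receptors have a median of 6.54, the glucocorticoid target genes 11.63, the vitamin D genes 4.43 and all genes 6.84.

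Levels of a receptor differed between its probe sets and between the arrays. Of the 40 receptors, 15 had 1 probe set and 25 had several, up to 9 for Rora. For 12 of the 25, means of probe sets of the same gene lay on both sides of 5, namely Rxra, Nr3c1, Esr1, Rora, Rorb, Nr4a3, Nr2c1, Nr2c2, Nr2f2, Nr5a2, Nr6a1 and Esrra. The spread between the highest and the lowest probe set reached 7.73 for Nr2f2 and 6.14 for Nr2c2, against 0.54 for Nr2f6. Between the arrays, the difference over the 104 receptor probe sets had an SD of 0.21, against 0.20 for all probe sets, and the median size was 0.12 for both. The largest was 0.72, for a probe set of Nr6a1 at 4.77 and 4.06. Over the highest probe sets, 30 of 40 differed by less than 0.20, and the largest difference was 0.38, for Vdr. All 22 receptors with a mean over 6.04 were above 6 on both arrays.

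**Figure D4:**
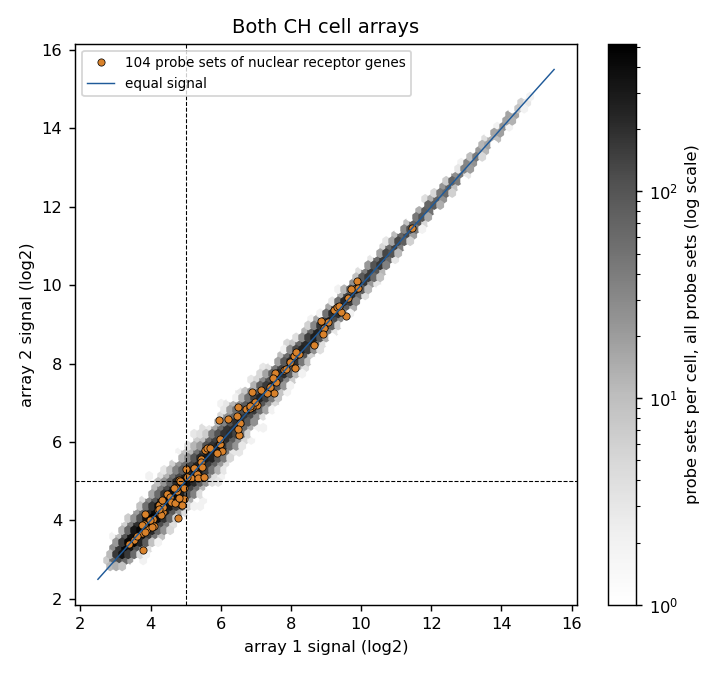
Signal (log2) on array 1 (horizontal) and array 2 (vertical) of 104 probe sets of nuclear receptor genes (orange) over all 45037 probe sets (grey, number per cell on a log scale), with equal signal (line) and the limit of 5 (dashed lines). The receptor probe sets lie along the line, with 65 above 5 on both arrays, 37 below on both, and an SD of the difference of 0.21.

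Markers of other cells were read on the same arrays, on which 71.2% of all genes were above 5. Of 8 leukocyte markers, 4 were above 5, and the summed signal of the list was 10.57 and 10.42 (log2). Such sums run over different genes and different numbers of genes, so they do not rank cell types by amount. Ptprc, which encodes the CD45 used to gate these cells out, was at 4.95 and 5.24, and the myeloid integrin Itgam was at 3.78 and 3.92. Lyz2 and Cd14, genes of monocytes and macrophages, were at 9.67 and 9.49 and at 8.31 and 8.20. The other leukocyte markers above 5 were Csf1r, at 7.49 and 7.35, and Cd3e, at 6.65 and 6.56 and thus within the background range. Adgre1 was at 5.02 and 4.62, on both sides of the limit, and Cd79a at 4.84 and 4.59. Of 4 measured erythroid markers, 0 were above 5, with sums of 6.79 and 6.57. All 5 platelet markers were above 5, with sums of 8.93 and 9.02 and a median of 6.41, and Pf4, Gp9 and Gp1bb were within the background range. All 7 mesenchymal markers, with sums of 14.89 and 14.88, and all 4 epithelial markers, with sums of 12.70 and 12.66, were above 5. Among these, only Nt5e was within the background range. Of 5 hepatocyte markers, 3 were above 5, and the sums of the list were 7.80 and 7.76. Those 3, Ttr, Apoa1 and Cps1, were within the background range, and the other probe sets of Ttr had means below 5. Alb, which defines hepatocytes, was at 4.33 and 3.89. Which cells held the receptor transcripts, and the part of these other cell types in their levels, was not tested. CH cells have no defining gene of their own in the labels, so their identity could not be checked with a marker.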

How the data were processed

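The authors deposited 1 log2 signal per probe set and array, used here as deposited. The study describes RMA and quantile normalisation of these arrays jointly with public ones. That the log2 table is the output of this joint step is not stated in the sources used here, nor are tool versions. No count lies behind a log2 signal, so depth is not defined and the number of arrays limits precision. Of 45101 probe sets, 64 controls were removed. Of the remaining 45037, 34945 name 1 gene in the platform annotation and were used for genes, 932 name several and 9160 are not listed there or name no gene. Symbols of 34741 probe sets matched RefSeq (GRCm38.p6) through Entrez identifiers, and 0 changed.

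A gene was called above 5 (log2) when 1 of its probe sets exceeded 5 on both arrays. The use of that limit on these arrays alone was chosen here. Each probe set was also set against 5 with limma 3.58.1 in R 4.3.3 (intercept, empirical Bayes moderation, two-sided, Benjamini-Hochberg over 45037 probe sets, adjusted p under 0.05). It was run on simulated data with the same SD for every probe set, in which some were raised well above 5. That simulation does not cover calls near 5 or an unequal spread. Nothing in the sources says more of the replicates than that they were separate pools of mice. Each p-value sets the distance of a mean from 5 against a spread between 2 arrays that is moderated over all probe sets. It does not measure the variation between single mice. Counts were repeated with limits of 6 and 8, the 95th percentile of background genes, limma, the median over probe sets, without probe sets ending in _s_at or _x_at, after quantile normalization of both arrays, and with each array left out. Python 3.11.15 with numpy, pandas and matplotlib was used.

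The receptors, gene lists and markers were chosen with earlier results of these data known. Named were all 42 receptors and, of each list, the 4 genes with the highest and the 2 with the lowest level, plus genes with probe set means on both sides of 5. Other genes of the lists, among them Sgk1, were named after their values were seen. Genes of a list without a probe set naming them alone, and receptor proteins, were not analysed here.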

Additional observations from a re-analysis of the deposited data

How the results depend on the processing

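The count of receptors above 5 was 22 of 40 with a limit of 6 or of the background genes' 95th percentile (without Esr2, Nr0b2, Nr1h3, Nr5a2, Rorb and Rxrg), 26 with limma (without Esr2 and Rorb), 26 with the median over probe sets (without Nr5a2 and Rorb), 27 without the probe sets ending in _s_at or _x_at (without Nr5a2), 28 after quantile normalization and 28 to 29 with an array left out (Nr1i3 was gained without replicate 1). Shares of all genes were 57.8% with a limit of 6, 57.4% with the 95th percentile, 69.1% with limma and 65.2% with the median. The receptors were at 55.0%, 55.0%, 65.0% and 65.0%, in the same order. Without the _s_at and _x_at probe sets, 70.4% of all genes and 67.5% of receptors were called. After quantile normalization these shares were 71.2% and 70.0%, without replicate 1 72.4% and 72.5%, and without replicate 2 72.8% and 70.0%. With a limit of 8, 14 receptors (35.0%) and 6738 genes (37.0%) remained above it. In the lists with that limit, 0 of 4 receptors outside the list, 4 of 13 retinoid metabolism genes, 1 of 9 retinoic acid targets, 4 of 9 steroid chaperones and enzymes, 1 of 7 thyroid hormone genes, 0 of 5 vitamin D genes, 0 of 9 bile acid and xenobiotic targets and 7 of 14 clock genes were above it. With a limit of 6, and likewise with the 95th percentile, 0 receptors outside the list, 5 retinoid metabolism genes, 2 retinoic acid targets, 3 thyroid hormone genes and 0 vitamin D genes were above it. With limma, 0 vitamin D genes were above 5. With the median over probe sets, 1 receptor outside the list, 3 thyroid hormone genes and 1 bile acid or xenobiotic target were. Under these and the other settings, 129 counts of the receptors and lists stayed within 1.5 times the count reported and 24 did not. No paired analysis was possible because there was 1 group, whose replicate numbers share nothing with another. A limit does not separate a low transcript from probe background, and signals near it depend on the probe set.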
